A study of Mus musculus with 12 samples.

Results

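A set of 150 transcripts had a lower level after sciatic nerve injury in ribosome-bound RNA of mouse dorsal root ganglia and a nearly level amount in the input RNA. They were chosen on measured values. Counts of the 3 samples of a group were summed, 1 was added, and each sum was divided by the group's total and expressed as CPM, the count it would be in a library of one standard size. Members had a ratio of injured to uninjured CPM of at most 0.4 in the immunoprecipitate (IP), and of 0.67 to 1.5 in the input. They also had at least 20 summed counts in uninjured IP and in both input groups. The table lists 101744 mouse transcripts, of which 35917 had a count in some sample. The count minimums were met by 3411, and 2456 of these were also flat in input by the rule. The 150 members are 6.11% of the 2456. Because the rule used the injury ratios in IP and in input, these ratios are described here and not tested.

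All 12 samples came from dorsal root ganglia of mice labelled RPL22HA+/+;Advillin-Cre+, a genotype that the uninjured controls carry as well. The 4 groups of 3 samples are IP and input of ganglia with sciatic nerve injury, and IP and input of ganglia without injury. Neither the interval between injury and collection nor the age, number or pooling of the mice is given in the sources used here. Input samples are labelled total RNA, yet carry the same extraction text as the IP samples, which describes pulldown with anti-HA, so the preparation of the input is uncertain.

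Dorsal root ganglia hold the cell bodies of sensory neurons, whose peripheral axons run in nerves such as the sciatic nerve, together with satellite glia, Schwann cells, macrophages, fibroblasts and vessel cells. In a RiboTag mouse, Cre recombinase switches a ribosomal protein to a form that carries an HA tag, and an antibody to HA then recovers ribosomes with the RNA on them. Advillin is a gene of peripheral sensory neurons, so an Advillin-Cre driver directs the tag to these cells, while the input holds RNA of every cell of the ganglion. After a nerve is cut or crushed, sensory neurons are known to switch on growth and stress genes and to lower many genes of mature neuronal function, among them ion channels and neurofilaments. A transcript lower in IP and level in input can differ in how much of it is on tagged ribosomes, or in which cells hold it, and these cannot be told apart from such data. In these bulk samples, fewer cells of a type and less RNA per cell cannot be told apart either.

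The transcripts carry Ensembl IDs that the files do not pair with gene names. Of the 101744 IDs, 0 matched the gene tables used here, so functions, gene families, other transcripts of the same gene, markers of neurons or other cell types and sequences were not analysed here. The labelled tissue could therefore not be checked against its markers. Members are named by their rank in summed uninjured IP counts, from 1 for the most abundant, and the 2 most abundant also by ID.

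The libraries were shallow in IP and deeper in input. IP samples held 190594 to 212449 estimated counts and input samples 1584104 to 1685756. The 3 totals within a group lay within 0.449% of each other. Such equal totals, with a typical spread near counting noise, led to each group being counted as 1 sample, and differences between conditions stand without a replicate check. One count was worth 1.57 CPM in uninjured IP and 1.75 CPM in injured IP, against 0.198 and 0.210 CPM in uninjured and injured input. Counting intervals below are exact 95% intervals. They cover counting error only, since reads amplified without molecular identifiers are not independent molecules, and for IP ratios they are too narrow as a guide to a new sample because the members were chosen for low ratios.

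**Figure D1:**
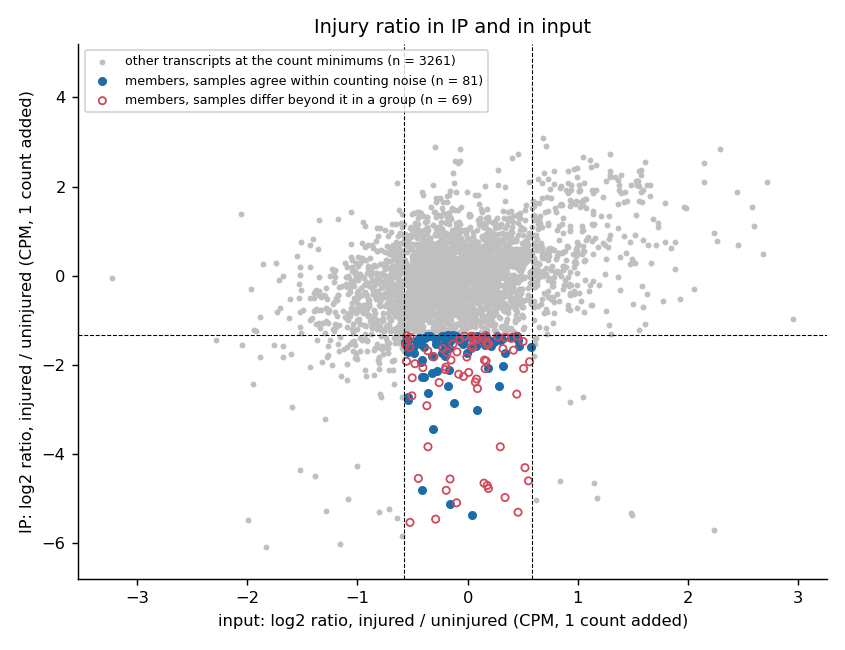
Injured over uninjured ratio of each transcript in input (horizontal axis, log2) and in IP (vertical axis, log2) for the 3411 transcripts at the count minimums, with dashed lines at the limits of the rule. The 150 members fill the box below 0.4 in IP, most of them close to its upper edge, and the points below -4 on the vertical axis are members and other transcripts with few or no counts in injured IP.

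As a group, the members made up 4.33% of all counts in uninjured IP and 1.40% in injured IP. The 3 samples held 4.23%, 4.31% and 4.45% in uninjured IP, and 1.44%, 1.44% and 1.32% in injured IP. In the input they made up 1.35% of uninjured and 1.26% of injured counts. Their joint share was thus 0.324 times as large after injury in IP and 0.933 times in input. The 2 most abundant members held 38.9% of the members' uninjured IP counts and the first 7 held 63.5%. Without those 7 the joint share was 1.58% in uninjured and 0.433% in injured IP, a ratio of 0.274, and 1.13% and 1.08% in uninjured and injured input. The lower level was therefore shared by the less abundant members, as the rule requires.

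Most members were near the threshold. The median IP ratio was 0.324, with quartiles of 0.217 and 0.371, and 87 of 150 had a ratio over 0.3. At most 0.2 was reached by 32. Over all 2456 transcripts flat in input, the median ratio was 0.945. The 3 members closest to the threshold had IP ratios of 0.399, 0.399 and 0.397, and the 3 transcripts just outside it 0.402, 0.404 and 0.407. The most abundant member also lay at the edge of the input range, with a ratio of 0.673, and the nearest transcript left out for its input ratio also rounded to 0.67. Of the 259 transcripts with an IP ratio of at most 0.4 at the count minimums, 7.59% of 3411, another 95 were lower in input than the range and 14 higher. The mirror set, with an IP ratio of at least 2.5 and the same input range, held 73 transcripts, 2.97% of the 2456.

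The most abundant members were read deeply in every group. ENSMUST00000022639.8, ranked 1, had 1902, 1987 and 2013 counts in the uninjured IP samples and 646, 593 and 651 in the injured ones. It had 1652, 1665 and 1659 counts in uninjured input and 1066, 1036 and 1046 in injured input. All injured samples lay below all uninjured ones in IP and also in input. Its IP ratio was 0.356 (counting interval 0.338 to 0.375) and its input ratio 0.673 (0.643 to 0.704), so this transcript was lower in both fractions and lay just inside the input limit.

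ENSMUST00000064762.6, ranked 2, was nearly level in input. It had 1609, 1617 and 1573 counts in uninjured IP and 519, 540 and 550 in injured IP, an IP ratio of 0.373 (0.352 to 0.395). In input it had 799, 817 and 804 counts without injury and 729, 744 and 741 with it. The injured input samples had fewer counts, and the injured libraries were also smaller. After scaling to each sample's total, the injured input samples still lay below all uninjured ones, at 460 to 469 CPM against 474 to 485. The input ratio was 0.973 (0.918 to 1.03). With scaling by TMM (trimmed mean of M values), which assumes that most transcripts do not differ, its log2 input ratio of -0.04 became 0.01.

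The members ranked 4 to 7 had fairly even IP samples as well. In injured input rank 4 was less even, at 194, 160 and 218 counts. Rank 4 had 468, 456 and 527 counts in uninjured IP and 179, 163 and 155 in injured IP, a ratio of 0.381 (0.343 to 0.422), with an input ratio of 0.747 (0.67 to 0.832). Rank 5 had 459, 464 and 462 counts against 129, 130 and 98, a ratio of 0.287 (0.254 to 0.322), with an input ratio of 0.799 (0.707 to 0.901). In neither did the IP samples of the 2 conditions overlap, and both were also lower in input by an interval that did not reach 1. Rank 7 followed the same pattern, with 355, 332 and 349 counts in uninjured IP and 127, 104 and 112 in injured IP, a ratio of 0.369 (0.325 to 0.416), and an input ratio of 0.820 (0.75 to 0.897).

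Rank 6 went the other way in input. It had 349, 415 and 386 counts in uninjured IP and 137, 132 and 134 in injured IP, a ratio of 0.390 (0.347 to 0.436). Input held 326, 308 and 287 counts without injury and 370, 354 and 315 with it, a ratio of 1.20 (1.10 to 1.31). After scaling to each sample's total, all 3 injured samples lay below the uninjured ones in IP and above them in input.

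Rank 3 was read unevenly. It had 678, 462 and 628 counts in uninjured IP, but 200, 248 and 0 in injured IP. In input it had 60.2, 0 and 89.5 counts without injury and 64.0, 0 and 75.9 with it. The 0 beside counts of 200 and 248 in the same group is more than counting noise gives. The IP ratio of 0.282 of rank 3 depended on that sample at 0. With its sample number left out of all groups, the rule did not take this transcript. Among the 16 most abundant members, such a 0 in one IP sample and many counts in another also occurred at rank 15, with 0, 27.6 and 0 counts in injured IP against 68.6, 65.0 and 71.6 in uninjured IP. At rank 16 the uninjured IP samples held 0, 0 and 204 counts and the injured ones 43.5, 0 and 0, so its ratio of 0.241 rested on single samples.

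**Figure D2:**
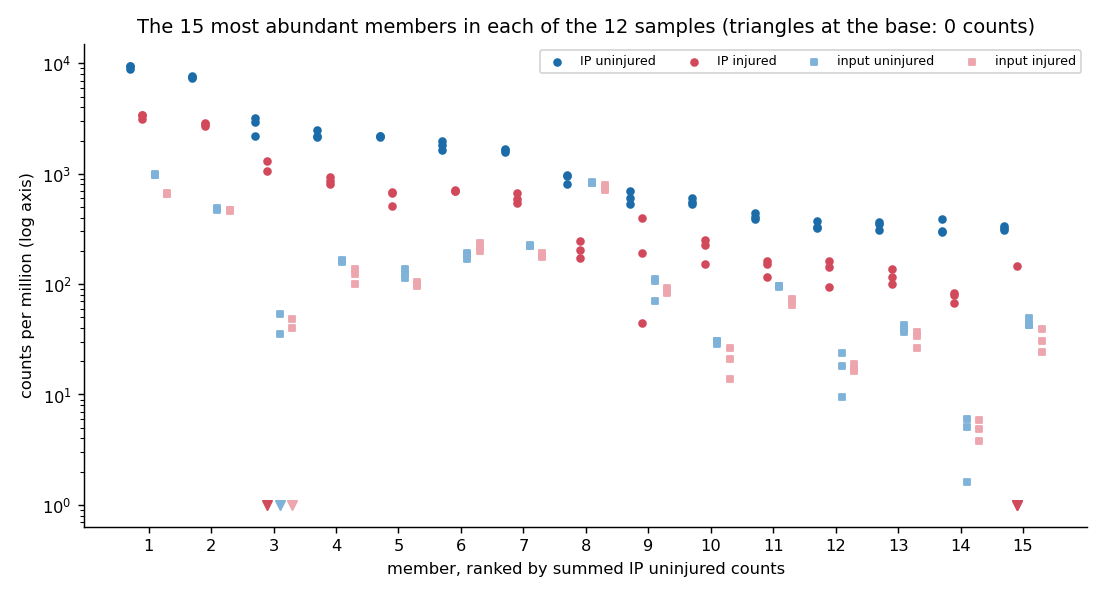
Level of the 15 most abundant members, by rank, in each of the 12 samples (CPM on a log axis; circles IP, squares input, triangles at the base samples with 0 counts). Injured IP points lie below uninjured IP points for each of the 15. Input levels of the 2 conditions differ less, with ratios from 0.673 at rank 1 to 1.20 at rank 6. At ranks 1, 2, 4 to 8, 10, 11 and 15 the input samples of the 2 conditions do not overlap, with injured lower except at rank 6. Ranks 3 and 15 have samples at 0 beside samples with many counts.

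With group totals as the scale, rank 8 was the only one of the first 8 whose IP and input levels were alike in uninjured ganglia. It had 173, 203 and 205 counts in uninjured IP and 47, 39 and 33 in injured IP, a ratio of 0.229 (0.185 to 0.278), the lowest among the 8 members with at least 500 summed counts in uninjured IP. In input it was abundant, with 1432, 1394 and 1400 counts without injury and 1121, 1245 and 1177 with it, a ratio of 0.892 (0.852 to 0.932). Its IP level was 1.09 times its input level in uninjured ganglia and 0.281 times in injured ones. With TMM, which moves IP against input, these became 0.367 and 0.0858 times.

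Members were found at each level of abundance. They were 79 of the 1284 compared transcripts with 20 to under 50 summed counts in uninjured IP (6.15%), 40 of 619 with 50 to under 100 (6.46%), and 23 of 494 with 100 to under 500 (4.66%). At 500 counts or more they were 8 of 59 (13.6%), while the mirror set held 1 of those 59. The median log2 IP ratio of all compared transcripts was -0.39 in that class and -0.01 in the class of 20 to under 50. In that lowest class a ratio of at most 0.4 rests on few counts in injured IP, so single members are known with wide error.

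At 0 counts in all 3 injured IP samples were 16 members. Their summed counts in uninjured IP ran from 21 to 50.5. A count of 0 allows up to 3 counts in the group, or 5.25 CPM. Against this floor these members were 6.3-fold to 15.1-fold lower in injured IP. The floor leaves out the counting error of uninjured IP, so these folds are not lower bounds. Only 3 of the 16 had samples that agreed within counting noise in all 4 groups. The most abundant of these, rank 78, had 17.7, 12.5 and 14.8 counts in uninjured IP and 0 in each injured IP sample. Its input samples held 10.8, 13.9 and 8.75 counts without injury, and 10.4, 12.3 and 9.74 with it. Among the other 13 was rank 135, with 0, 0 and 25 counts in uninjured IP and 1301 to 1927 counts in the input samples.

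The rule sees sums alone, but one high sample or one at 0 can carry a sum past its limits, so the spread between the samples of a group is not independent of the choice and is given as a description. It was measured as the chi-square statistic of the 3 estimated counts, and a transcript was said to differ beyond counting noise in a group where the chi-square p was 0.01 or less. In uninjured IP, 33 of 150 members (22.0%) differed beyond counting noise, against 5.85% of the 2306 other transcripts flat in input. In injured IP it was 35 members (23.3%) against 5.42%, and the 16 members with no counts there have no chi-square, so that the 35 are 26.1% of the 134 with counts. Input samples showed the same, with 38 members (25.3%) against 7.46% without injury and 34 (22.7%) against 5.55% with it. In all 4 groups the samples of 81 members (54.0%) agreed within counting noise, with groups of no counts taken as agreeing, compared with 84.0% of the others and 68.5% of the mirror set. The median chi-square of members was 1.46 times the noise value in uninjured IP, 2.02 times in injured IP, 1.68 times in uninjured input and 1.82 times in injured input.

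Part of this spread came as samples at 0. Where a transcript's 3 samples summed to at least 30 counts, a sample at 0 was seen for 18 of 112 members in uninjured IP (16.1%) and for 5 of 29 in injured IP (17.2%). Of the other transcripts it was 2.63% and 2.51%. In input it was 16 of 133 members (12%) without injury and 15 of 129 (11.6%) with it, against 3.18% and 2.01% of the others. In 9 members both input groups had exactly 1 sample at 0 at that depth, and in 3 of these the 0 fell on the same sample number. Estimated counts can move between similar transcripts of a gene, but whether this took part in the lower IP level of members was not tested.

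**Figure D3:**
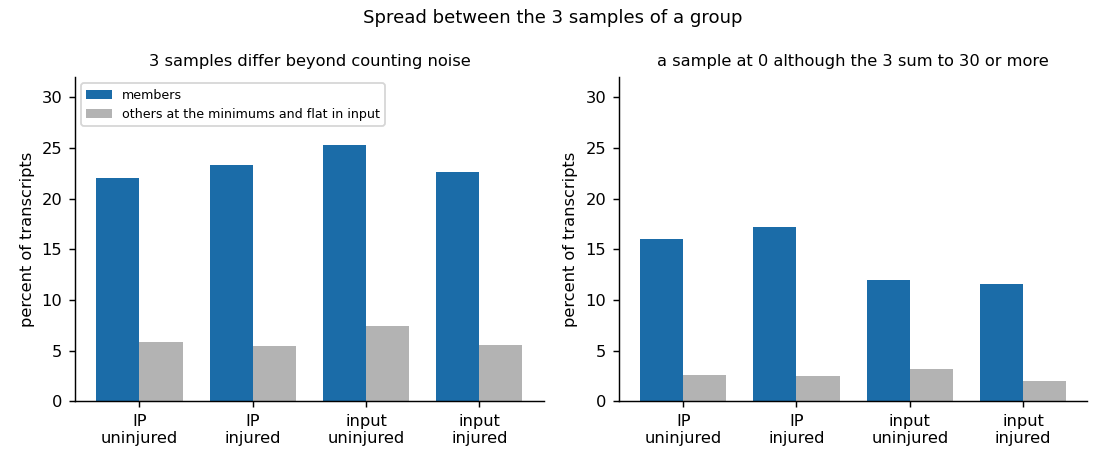
Percent of members and of the other transcripts flat in input whose 3 samples differed beyond counting noise (left, chi-square p of 0.01 or less), and percent with a sample at 0 among those summing to 30 counts or more (right), in each group. Bars of members lie between 22.0% and 25.3% on the left and between 11.6% and 17.2% on the right, above those of the others in every group.

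The samples of the 2 conditions did not overlap in IP for 112 of 150 members (74.7%), when each value was scaled to its sample's total. Over the 2456 transcripts flat in input, the injured IP samples lay below all uninjured ones in 22.7%. The rule used this contrast, so the higher share of members is a description. Of the 112, 78 had samples that agreed within counting noise in all 4 groups, and the median IP ratio of these 78 was 0.344. Their ratios ran from 0.0927 to 0.399 in the 75 with counts in injured IP, and the other 3 were at 0 there.

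In input, the label flat covered different cases. The median input ratio of members was 0.924, and of the 2306 other transcripts flat in input 0.930. A ratio under 1 was seen in 89 of 150 members (59.3%) and in 62.5% of the others. The counting interval covered 1 for 113 members, lay below 1 for 29 and above 1 for 8. In 30 members all 3 injured input samples lay below the uninjured ones and in 4 above them, where the background over all 2456 was 23.2% and 7.25%. The other 116 overlapped. For only 38 members did the whole counting interval stay within 0.67 to 1.5. For the other 112 it reached past the range, so that a flat input was not shown. This was not always for want of depth, as rank 1 was read deeply and had an interval of 0.643 to 0.704.

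In 34 members the input interval stayed within the range and the IP interval lay wholly below 0.67. Of these 34, 13 also had samples that agreed within counting noise and did not overlap between conditions in IP. These 13 were singled out after their values were seen, and on IP counts that the rule had used, so they are a description. Without the interval limits, samples agreed and injured IP lay below uninjured IP in 477 of all 2456 transcripts flat in input. Among the 13 were ranks 2 and 5 to 8, and their median IP ratio was 0.334. In 12 the IP ratio ran from 0.162 to 0.390. The other, rank 93, was at 0 counts in injured IP, 11.3-fold lower against the floor of 3 counts. The counting interval of its IP ratio was 0 to 0.113. Their input ratios ran from 0.779 to 1.20, with 10 of 13 under 1. Rank 17 belonged to them with little IP and much input, at 63, 68 and 63 counts in uninjured IP, 20, 26 and 16 in injured IP, and 3153 to 3637 counts in each input sample. Its IP ratio was 0.359 (0.263 to 0.475) and its input ratio 0.959 (0.933 to 0.986). Rank 56 had 21.0, 17.9 and 21.9 counts in uninjured IP and 4, 1 and 3 in injured IP, a ratio of 0.162 (0.0603 to 0.306). Its input held 314, 275 and 302 counts without injury and 215, 214 and 224 with it, a ratio of 0.779 (0.704 to 0.863).

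The level in IP relative to input was mostly high for members without injury. With group totals as the scale, 138 of 150 members (92.0%) had a higher CPM in IP than in input in uninjured ganglia, with a median log2 ratio of 2.55. Of the other 2306 transcripts flat in input, 82.8% were higher in IP and the median was 1.92. The rule favours a high uninjured IP value, so this difference is not independent of it. The median depended on the scaling, and was 0.97 for members and 0.34 for the others with TMM. Rank 3 stood highest relative to input, at 93.4 times its input level by group totals (31.3 times with TMM), followed by rank 14 at 74.9 times (25.1 times with TMM). Rank 14 had 62.6, 82.9 and 63.6 counts in uninjured IP, 15.3, 16 and 12.7 in injured IP and 2.70 to 10.03 in the input samples.

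An IP ratio of at most 0.4 with an input ratio of at least 0.67 fixes a fall of the IP over input ratio with injury in every member, so the values after injury are a description too. The members' median after injury was 0.72 on the log2 scale, and -0.996 with TMM, so that its sign depended on the scaling. For the other transcripts flat in input it was 1.89, and 0.17 with TMM. With group totals, 89 members (59.3%) were higher in IP than in input in both conditions, 49 (32.7%) were higher without injury and lower with it, and 12 (8%) were lower in both. Of the others these shares were 81.7%, 1.08% and 14.6%. With TMM, 109 members (72.7%) were higher in IP without injury and 36 (24%) with it, compared with 59.3% and 55.2% of the others. The mirror set, raised in IP, started from a low level. By group totals its median log2 ratio was -3.41 in uninjured and -1.76 in injured ganglia, and with TMM -4.99 and -3.47.

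**Figure D4:**
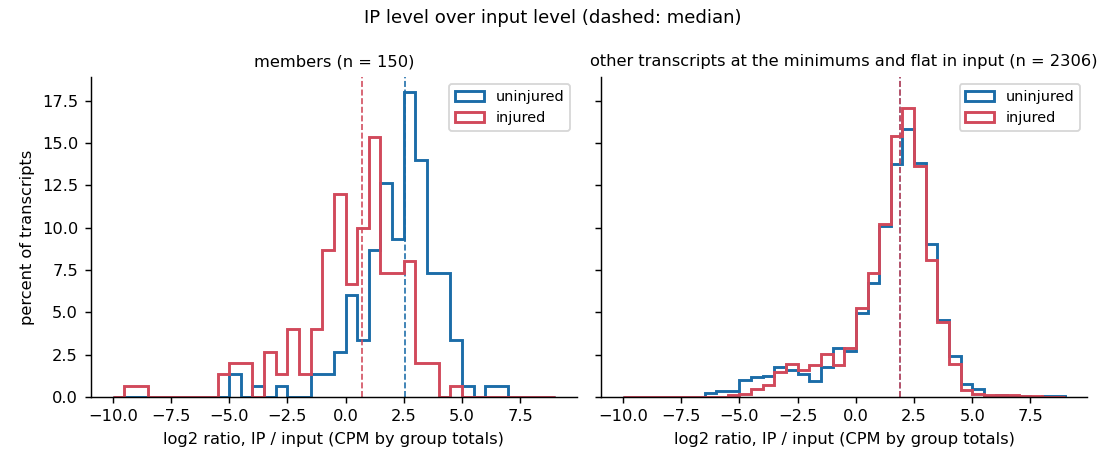
Distribution of the log2 ratio of IP to input CPM, scaled by group totals, for the 150 members (left) and the 2306 other transcripts flat in input (right), in uninjured and injured ganglia (dashed lines, medians). The members' median lay at 2.55 without injury and 0.72 with it, while those of the others were 1.92 and 1.89; the rule itself fixes a fall in every member.

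The 12 members lower in IP than in input in both conditions by group totals included some of the most abundant in input. Rank 17 was described above, and its IP level was 0.144 times its input level without injury and 0.0541 times with it. Rank 29 had 38.3, 27.8 and 38.5 counts in uninjured IP and 7.08, 7.40 and 15.1 in injured IP, a ratio of 0.322 (0.204 to 0.481). Its input was among the highest of all members, at 3526, 2970 and 3033 counts without injury and 3796, 3873 and 3527 with it. The counting interval of its input ratio was 1.22 to 1.28, and its input samples differed beyond counting noise in both conditions. Rank 109 had 4.64, 25.7 and 0 counts in uninjured IP and 0 in each injured IP sample, against 1721 to 2252 counts in each input sample. In members such as these, IP held few counts beside a large input pool.

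How far the ratios depend on the samples that chose the members was read by leaving out one sample number in all groups. The rule was applied to the sums of the other 2 numbers with count minimums scaled by the number of samples, and the ratio was then read in the number left out. The rule took 166, 152 and 154 transcripts without numbers 1, 2 and 3, of which 93, 83 and 82 were among the 150 members, or 62.0%, 55.3% and 54.7% of the members. In the 2 numbers used, the median IP ratio was 0.293, 0.315 and 0.303. In the number left out it was 0.543, 0.499 and 0.544, nearer to 1 in each case. Of the chosen transcripts 35, 27 and 26 were at 0 in injured IP there, 15, 7 and 10 of them also in uninjured IP, and with these at the floor of 3 counts the medians were 0.557, 0.533 and 0.556. All transcripts flat in input by the 2 numbers had medians of 0.983, 0.978 and 0.973 there.

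In the number left out, 77.1%, 77.0% and 77.9% of the chosen transcripts had an IP ratio under 1, compared with 51.1%, 51.9% and 51.2% of all transcripts flat in input by the 2 numbers. A ratio of at most 0.4 was seen again in 34.3%, 32.9% and 35.7%, compared with 7.72%, 7.12% and 7.65%. In input, 63.9%, 64.5% and 64.3% of the chosen transcripts stayed within 0.67 to 1.5 in the number left out, against 75.9%, 76.4% and 76.1% of all. A direction below 1 was thus read in most of the chosen transcripts by a sample that had not chosen them, at a smaller size than in the samples that had. Whether the 3 numbers are separate animals or parts of one library is not given, so this reading speaks of these libraries alone.

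The rule took 35 of the 150 members whichever number was left out. Their median IP ratio was 0.232, and in 33 the IP samples of the 2 conditions did not overlap. Samples agreed within counting noise in all 4 groups for 26 of the 35, and the input counting interval covered 1 for 25. Among the 8 members with at least 500 counts in uninjured IP, 4 were in this group of 35. The choices share samples, and each used the IP and input limits. The values of the 35 therefore follow in part from the choice and are a description.

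**Figure D5:**
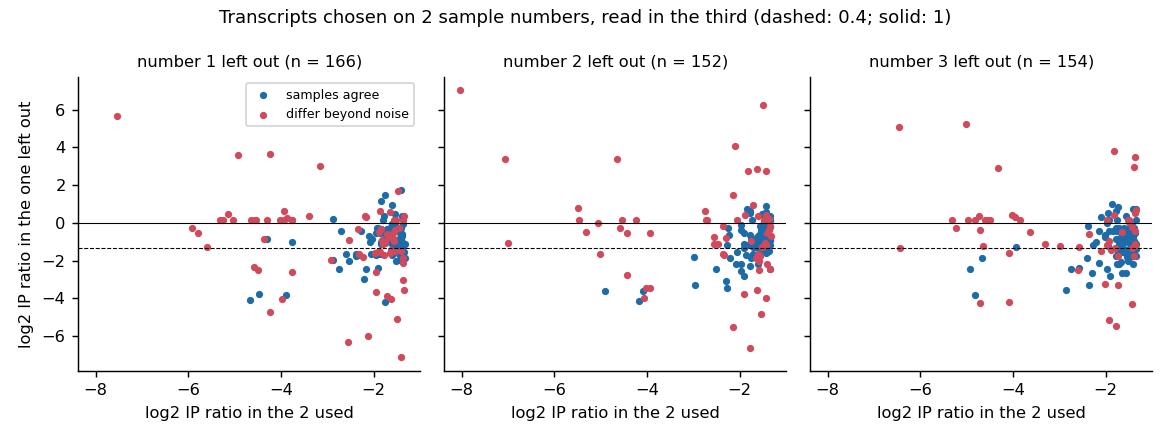
Log2 IP ratio of transcripts that the rule took on 2 sample numbers (horizontal axis) against the ratio in the number left out (vertical axis), with 166, 152 and 154 transcripts (solid line, ratio 1; dashed line, ratio 0.4). Most points lie below the solid line, and many of those whose 3 samples differed beyond counting noise lie on or above it. That difference was read over all 3 samples, the one left out included, so it is not independent of the vertical axis.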

How the data were processed

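RNA recovered by anti-HA immunoprecipitation and input RNA of dorsal root ganglia was made into PCR-cDNA libraries with a barcoding kit for nanopore sequencing, per the labels' protocols. Values in the authors' deposited table are estimated counts of single transcripts, and 3.00% to 11.4% of those of a sample were fractional. Tools and builds named in the submitters' processing notes are minimap2, Salmon, GRCm39 and mm39, with no role or version. Grouping follows the sample titles.

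The 3 samples of a group were summed. The rule used unrounded sums, and counts were rounded for intervals, edgeR 4.0.16 and DESeq2 1.42.0 (R 4.3.3). Ratios were given Clopper-Pearson intervals conditional on the summed count (scipy 1.17.1). TMM factors came from transcripts that passed filterByExpr. The call over all transcripts needed 10 CPM in the higher group, a 2-fold difference, a counting interval off 1 and no overlap of samples. Scripts were tested on simulated data. Members and lists were chosen with earlier results of these data known. The planned gene lists, per-gene sums, other transcripts of a gene and sequence features were not analysed here, since 0 IDs matched; the naming rule was reduced to 2 IDs.

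Injured and uninjured samples of one number did not deviate together within IP or within input. Across 612 transcripts, they had r of -0.06, -0.06 and 0.05 in IP and -0.02, -0.11 and -0.06 in input. The correlation of IP with input samples of one number was not computed. The numbers were not taken as pairs.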

Additional observations from a re-analysis of the deposited data

Results flagged for a closer look

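In 4 members, all 3 injured samples lay below the uninjured ones in IP and above them in input, after scaling to each sample's total. The opposite directions mark them for a closer look, and the difference was not tested. The members were chosen for low IP ratios, which fixes one of the directions, and 13 of all 2456 transcripts flat in input showed the same pattern. The 4 were ranks 6, 29, 55 and 66, and the input samples of rank 29 differed beyond counting noise in both conditions. Rank 55 had 24, 16 and 22 counts in uninjured IP and 5, 6 and 9 in injured IP, with an input ratio of 1.37 (counting interval 1.07 to 1.78). Rank 66 had 16, 16 and 23 counts in uninjured IP and 5, 6 and 5 in injured IP, with an input ratio of 1.38 (1.09 to 1.77).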

How the results depend on the processing

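The rule took 188 transcripts with TMM factors, 147 of them members, and 152 to 166 with one number left out. It took 81 where samples agreed within counting noise, 52 at a minimum of 50 counts, 250 with no minimum in input and 91 with a narrower input range, chosen after seeing the data. Over all transcripts, the call found 1784 of 8014 compared for injury in IP. The fits gave 1250 in edgeR, 912 in edgeR with the replicate block and 1257 in DESeq2. For injury in input the call found 1514 of 9165, with 2365 at no minimum. The fits gave 900 in edgeR, 614 in edgeR with the replicate block and 1753 in DESeq2. They counted a false discovery rate under 0.05 with no 2-fold or overlap limit, in a set filtered otherwise, so their counts are not out of 8014 or 9165. Leaving out a number gave 2007 to 2075 in IP and 1958 to 2045 in input. Without number 1 or 2, lower calls in IP fell from 840 to 803 and 814, while higher calls rose from 944 to 1237 and 1193. Without number 3 both rose, to 995 and 1080. Overlap is easier to avoid with 2 samples, and the TMM factors were refitted each time. The part of each was not tested. The edgeR and DESeq2 fits took the samples as replicates, and their spread may be technical. The median log2 IP over input ratio of members was 0.97 without injury and -0.996 with it under TMM, which rescales IP against input, and 2.42 to 2.54 and 0.57 to 0.69 with a number left out. The median ratio over the 3 numbers left out was 0.522, 0.491 with TMM and 0.490 where samples agreed. Agreement was read over all 3 samples, the one left out included, so the last value is not independent of it. The joint IP share ratio of 0.324 was 0.299 without the 2 most abundant members, 0.274 without the first 7 and 0.315 to 0.338 with a number left out. The log2 input ratio of ENSMUST00000064762.6 was 0.0073 with TMM. The cause of the other shifts was not tested. IP depth limits single members, at 48 summed counts in uninjured IP for the median member. Per-gene sums and other transcripts of the same gene were not run, for want of names.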
